A study of Homo sapiens with 9 samples.

Results

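The fibroblast growth factor (FGF) system was examined in Huh7 cells, an established human line labelled as hepatocellular carcinoma, after siRNA against the histone demethylase KDM4C. The genes are FGF18 with FGF1, FGF2, FGF11 and FGF19 as further family members and FGFR1, FGFR2, FGFR3, FGFR4 and FGFRL1 as receptors, chosen by symbol. Of these 10 symbols, 9 were found among the 32906 genes in the lists of values. FGF19 was not among them and was not analysed here. RNA sequencing gave 9 libraries, 3 each from Huh7 cells transfected in Scramble cells (control), Si-KDM4C#1 or Si-KDM4C#2 and collected 48 h later. The same line and medium are given for all groups, and all were transfected, the controls with the scrambled sequence. Knockdown was transient, and a single line was used for these libraries. The labels do not say that the replicates were separate cultures, so p-values measure the spread between these libraries only.

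Secreted FGFs bind FGF receptors, which are receptor tyrosine kinases, together with heparan sulfate chains on the cell surface or with klotho proteins. Bound receptors phosphorylate the docking protein FRS2, which recruits GRB2, SOS1 and the phosphatase SHP2 and switches on the RAS, RAF, MEK and ERK relay. ERK in turn raises transcription factors such as ETV4 and ETV5 and inhibitors such as the Sprouty proteins, which dampen the signal. In the liver, FGFR4 with its co-receptor beta-klotho receives FGF19 from the gut and lowers bile acid synthesis, while FGF18 acts in cartilage, bone and lung, through FGFR3 among other receptors, and FGF2 acts on mesenchyme and vessels.

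FGF18 (ENSG00000156427) occupies positions 171419656 to 171457623 of chromosome 5 in GRCh38, on the plus strand. GENCODE release 29 gives it 1 transcript of 1986 nucleotides in 5 exons, with 207 codons. The primer pair that the study lists for real-time PCR of FGF18 is shown because it marks which part of the mRNA that assay reads. Both primers matched this transcript. The forward primer lies in exon 3 (chr5:171436253-171436272) and the reverse primer in exon 4 (chr5:171449213-171449232), both inside the coding sequence, and they span 107 bases of mRNA across an intron.
FGF18 forward primer: gcgaggatggggacaagtat
FGF18 reverse primer: gcggttcatgcacaggtaga

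The DNA before the start site is shown for the genes that moved the same way with both siRNAs, FGF18 and FGF2 (lower) and FGFR3 and FGFR4 (higher). Sequences are from RefSeq (GRCh38.p14) and run 5′ to 3′ on the plus strand, on which all of these genes lie. They end before the first annotated transcribed base. Capitals mark GC boxes, the Sp1-type motif GGGCGG read on either strand.
FGF18, chr5:171419397-171419646: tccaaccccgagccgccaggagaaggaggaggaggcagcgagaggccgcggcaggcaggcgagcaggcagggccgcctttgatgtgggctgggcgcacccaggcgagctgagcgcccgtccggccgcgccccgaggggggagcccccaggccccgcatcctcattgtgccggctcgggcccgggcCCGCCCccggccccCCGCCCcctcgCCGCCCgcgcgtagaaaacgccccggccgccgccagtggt
FGF2, chr4:122826581-122826707: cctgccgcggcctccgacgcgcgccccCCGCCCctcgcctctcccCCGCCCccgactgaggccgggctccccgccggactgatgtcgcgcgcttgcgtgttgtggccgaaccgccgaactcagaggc
FGFR3, chr4:1793043-1793292: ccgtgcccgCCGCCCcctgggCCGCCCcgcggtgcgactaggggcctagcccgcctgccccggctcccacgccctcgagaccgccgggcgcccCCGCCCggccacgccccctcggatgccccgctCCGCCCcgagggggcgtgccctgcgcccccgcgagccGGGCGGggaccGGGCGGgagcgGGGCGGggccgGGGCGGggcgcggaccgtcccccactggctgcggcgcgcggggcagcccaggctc
FGFR4, chr5:177086665-177086885: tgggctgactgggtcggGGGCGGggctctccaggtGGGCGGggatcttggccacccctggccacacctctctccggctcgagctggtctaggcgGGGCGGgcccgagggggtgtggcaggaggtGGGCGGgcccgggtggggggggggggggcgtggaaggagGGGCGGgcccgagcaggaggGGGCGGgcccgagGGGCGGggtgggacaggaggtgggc
In the whole 250 bases before the RefSeq start, FGF18 and FGF2 each held 3 GC boxes, FGFR3 held 8 and FGFR4 held 7. Of 35116 such windows in the RefSeq table, 42.6% held at least 1. No window of these genes held TATAAA (10.7% of all windows), the AP-1 motif TGANTCA (6.57%) or the ETS motif CCGGAAG (8.52%) on either strand. Their GC content was 78.8% for FGF18, 75.2% for FGF2, 86.8% for FGFR3 and 79.6% for FGFR4, against a median of 58% over all windows. These letters describe the windows, and the genes that fell and those that rose were alike in holding GC boxes and lacking the other motifs.

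The values are FPKM, fragments of a gene divided by its exon length and by the depth of the library. Levels of different genes can be compared only as far as that length suits the transcripts present. All annotated exons together cover 13842 bases for FGFR1, against 4848 for FGFR3 and 4829 for FGFR4. FGFR1 values did not come out as whole fragments at this length, so the length used for FGFR1 is not known. Depth was 14597500 to 18058553 fragments per library, fitted from the FPKM values and exon lengths. The siRNA target KDM4C was at 4.69 ± 0.167 FPKM in Scramble cells, 1.14 ± 0.0395 FPKM after Si-KDM4C#1 and 0.287 ± 0.0535 FPKM after Si-KDM4C#2 (SD, n = 3 each), and its groups did not overlap. Of 15 hepatocyte markers, AFP included, 12 were listed, and each of these stayed below 1 FPKM in all 9 libraries. Their sums were 0.261 to 0.262 in Scramble cells, 0.0483 to 0.149 after Si-KDM4C#1 and 0.271 to 0.450 after Si-KDM4C#2, so these 12 mRNAs were at or near 0. ALB, APOB and TTR were not among the listed genes, and their levels are not known here. The levels of the 12 go against the label of a hepatocellular line, whose identity was not tested. The cells are called Huh7 here only by their label. Of the 4 listed epithelial markers, KRT8 and KRT18 carried the summed 330 to 353, 290 to 309 and 240 to 254 FPKM in the same order, and CDH1 and KRT19 were under 1. All 5 fibroblast markers were listed, with COL1A1 and COL3A1 above 1 FPKM in every library, COL1A2 and DCN near 0, and sums of 42.5 to 45.4, 52.1 to 55.5 and 73.0 to 75.2 FPKM in the same order. COL3A1 carried the higher sums (26.2 to 29.01, 36.7 to 39.8 and 54.2 to 56.3 FPKM), while PDGFRB, a receptor of mesenchymal cells, fell after both siRNAs, from 1.88 to 2.01 FPKM in Scramble cells to 0.244 to 0.372 after Si-KDM4C#1 (called) and 0.931 to 1.09 after Si-KDM4C#2. All 3 endothelial and 4 leukocyte markers were under 1 FPKM everywhere. Whether these marker levels play a part in the results on FGF genes was not tested.

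Groups were compared on log2(FPKM + 1) with limma-trend, and a gene is said to have risen or fallen at a false discovery rate (FDR) under 0.05. It is called changed when its fold change on that scale was also over 2. The study gives the same limits but not the scale of its fold change, so calls here need not match its gene lists. Of the 9 genes, 5 reached a mean of 1 FPKM in at least 1 group (FGF2, FGFR1, FGFR3, FGFR4 and FGFRL1) and were tested among the 14363 such genes. FGF18, FGF1, FGF11 and FGFR2 stayed below it and were tested in the same fit over all 32906 listed genes. The pseudocount of 1 compresses their log2 fold changes, so FPKM and recovered fragments are given for them as well. Every library of these 4 genes was under 1 FPKM, so on this scale none of them could be called lower.

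With both siRNAs, the ligand mRNAs FGF18 and FGF2 fell while the receptor mRNAs FGFR3 and FGFR4 rose. The decoy-like receptor FGFRL1 fell after Si-KDM4C#1 and rose after Si-KDM4C#2, and FGFR1 fell after Si-KDM4C#1 and did not pass the test after Si-KDM4C#2. FGF1, FGF11 and FGFR2 were low in all libraries and did not pass the test. The plot of FPKM by library shows these 9 genes.

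**Figure D1:**
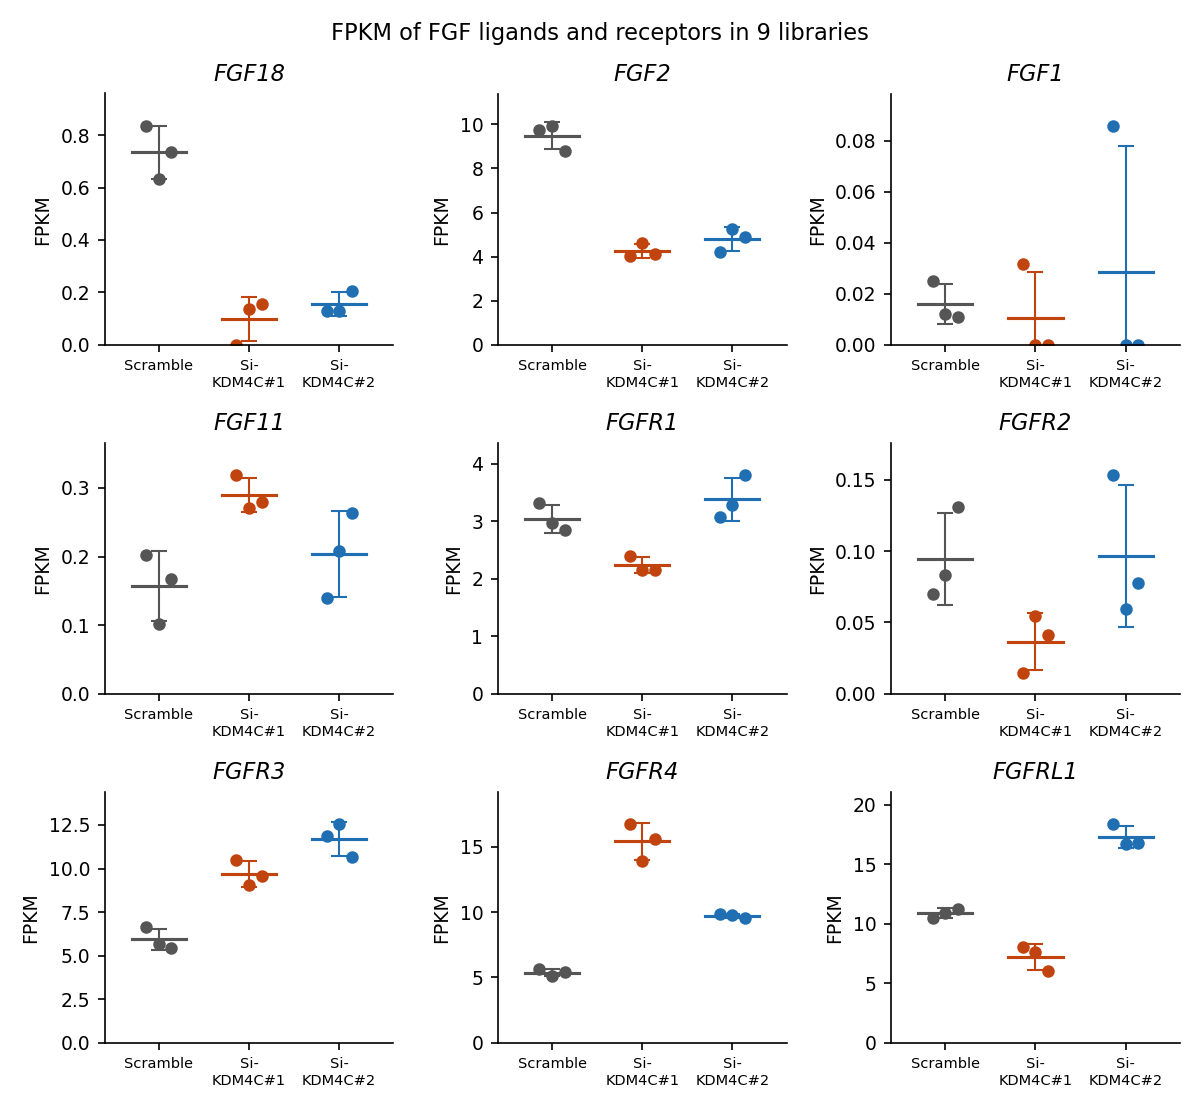
FPKM (y axis, starting at 0, a separate scale per gene) in the 3 libraries of Scramble, Si-KDM4C#1 and Si-KDM4C#2 (x axis), with points for libraries, horizontal lines for means and bars for SD. FGF18 and FGF2 are lower and FGFR3 and FGFR4 higher in all 6 knockdown libraries than in the 3 Scramble libraries, while FGFRL1 lies below Scramble after Si-KDM4C#1 and above it after Si-KDM4C#2.

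With Scramble, FGFRL1 (10.9 ± 0.413 FPKM) was the highest of the 9, followed by FGF2 (9.49 ± 0.613), FGFR3 (5.93 ± 0.615), FGFR4 (5.37 ± 0.268), FGFR1 (3.04 ± 0.244), FGF18 (0.734 ± 0.10), FGF11 (0.157 ± 0.0511), FGFR2 (0.0946 ± 0.0321) and FGF1 (0.0160 ± 0.00788), each as mean FPKM with SD over 3 libraries. FGFR3 and FGFR4 overlapped in this order, as did FGF11 and FGFR2, and the other neighbours did not. With Si-KDM4C#1 the highest were FGFR4 (15.4 ± 1.43 FPKM), FGFR3 (9.70 ± 0.738), FGFRL1 (7.23 ± 1.09) and FGF2 (4.25 ± 0.308), without overlap between neighbours. With Si-KDM4C#2 they were FGFRL1 (17.3 ± 0.936 FPKM), FGFR3 (11.7 ± 0.964), FGFR4 (9.71 ± 0.131) and FGF2 (4.78 ± 0.544), again without overlap. FGF2, the second highest in Scramble cells, was thus the lowest of these 4 with either siRNA.

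FGF18, a secreted ligand known for its role in bone and lung growth, was low in control cells and lower after knockdown. It was at 0.834, 0.633 and 0.735 FPKM in the Scramble libraries, 0, 0.138 and 0.157 after Si-KDM4C#1, and 0.130, 0.129 and 0.207 after Si-KDM4C#2. Every Scramble library was above every knockdown library, and the siRNA groups overlapped each other. These values rest on few reads. The Scramble libraries held 25, 20 and 25 fragments, those of Si-KDM4C#1 0, 4 and 5, and those of Si-KDM4C#2 4, 4 and 7. The floor of 3 fragments corresponds to 0.0836 to 0.103 FPKM for this gene, so the library at 0 allows a level up to 0.0836 FPKM.

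Summed over the 3 libraries, 70 fragments in Scramble cells stood against 9 after Si-KDM4C#1 and 15 after Si-KDM4C#2. Corrected for depth, the level after Si-KDM4C#1 was 0.127 of Scramble (exact 95% interval 0.0558 to 0.255) and that after Si-KDM4C#2 0.214 of Scramble (0.114 to 0.378), intervals that cover counting error only. On the log2(FPKM + 1) scale, FGF18 fell by 0.66 after Si-KDM4C#1 (SE 0.0782, limma-trend adjusted p = 0.000279) and fell by 0.58 after Si-KDM4C#2 (SE 0.0782, adjusted p = 0.000761). Of all listed genes, 29.5% passed the FDR after Si-KDM4C#1 and 25.6% after Si-KDM4C#2. Neither change of FGF18 was past the 2-fold limit on this scale. From Scramble libraries under 1 FPKM even a fall to 0 could not pass it, so the missing call is no result. With a pseudocount of 0.1, the log2 fold changes were -2.18 and -1.71, and with voom on the fragments -3.40 and -2.21, all past the limit. Over the 6 knockdown libraries together, the difference from Scramble was -0.62 (log2), with a two-sided exact permutation p = 0.0119, the smallest that 84 splits can give. Each siRNA alone gave p = 0.1 by the exact permutation test, which is the smallest possible with 3 against 3. The difference between the siRNAs was 0.08 (95% interval -0.11 to 0.26, limma-trend adjusted p = 0.576). FGF18 is one of the genes that the study picked out in these libraries, so these tests are not independent evidence. Apart from the libraries, the study reported lower FGF18 mRNA by real-time PCR after KDM4C knockdown, in Huh7 and in HepG2 cells. As these are bulk libraries, fewer cells with FGF18 mRNA and less of it per cell cannot be told apart.

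The 5 genes whose levels followed FGF18 most closely over the 9 libraries, by Pearson r of log2(FPKM + 1), were AC099811.5 (r = 0.994), AKAP10 (0.994), ATP6V1H (0.982), CCDC84 (0.982) and KANTR (0.981). AKAP10 is an anchoring protein for protein kinase A and ATP6V1H a subunit of the vacuolar proton pump. All of these were higher in Scramble cells than with either siRNA, for example AC099811.5 at 6.27, 1.53 and 1.86 FPKM on average in Scramble cells, Si-KDM4C#1 and Si-KDM4C#2, and AKAP10 at 13.0, 9.39 and 9.62 FPKM. The 9 points fall into Scramble and knockdown clusters, and 597 of 14363 genes had r over 0.9, so r describes this contrast between groups and is no finding about these 5 genes.

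FGF2, or basic FGF, is a ligand of wide action on fibroblasts and vessels that leaves cells without a signal peptide. Its FPKM was 9.77, 9.91 and 8.79 in Scramble cells, 4.03, 4.6 and 4.12 after Si-KDM4C#1, and 4.19, 5.26 and 4.88 after Si-KDM4C#2. Each of the 6 knockdown libraries was below the lowest Scramble library, and the siRNA groups overlapped each other. Mean FPKM was 0.448 of Scramble after Si-KDM4C#1 and 0.504 after Si-KDM4C#2, on 3087, 1396 and 1559 fragments per group. The log2 fold change was -0.999 after Si-KDM4C#1 (SE 0.0798, limma-trend adjusted p = 3.19e-06) and -0.86 after Si-KDM4C#2 (SE 0.0798, adjusted p = 1.35e-05). With Si-KDM4C#1 the fold on this scale was 0.5004, just short of the limit, so FGF2 is not called. Between the siRNAs FGF2 differed by 0.14 (95% interval -0.04 to 0.32, adjusted p = 0.166 by limma-trend), and without Si-KDM4C#2 replicate 1 by 0.21 (adjusted p = 0.0378). FGF2 (ENSG00000138685, chromosome 4, 122826708 to 122898236, plus strand) overlaps NUDT6 on the other strand, which was at 0.412 to 0.734 FPKM, and the library kit is not stated to keep the strand, so their reads cannot be told apart where they overlap.

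FGF1, acidic FGF, which binds all FGF receptors, had 4, 3 and 7 fragments in the Scramble, Si-KDM4C#1 and Si-KDM4C#2 groups. At 0 to 0.0856 FPKM it was at or under the floor of 3 fragments in 8 of the 9 libraries, and no fold change is given. FGF11 is an intracellular FGF homologous factor that is not secreted. It was at 0.202, 0.102 and 0.168 FPKM in Scramble cells, 0.318, 0.271 and 0.280 after Si-KDM4C#1, and 0.139, 0.208 and 0.263 after Si-KDM4C#2. The Si-KDM4C#1 libraries were all above the others, but the limma-trend adjusted p was 0.0738 against Scramble (log2 fold change 0.16, 95% interval 0.03 to 0.29, not adjusted for the number of genes). The 79 fragments after Si-KDM4C#1 against 42 in Scramble cells give a ratio of 1.86 (exact 95% interval 1.26 to 2.77, counting error only), and with limma voom on the fragments the change passed the FDR (log2 fold change 0.98, adjusted p = 0.0190). It also passed without Si-KDM4C#2 replicate 1 (adjusted p = 0.0473) or replicate 3 (adjusted p = 0.0488), and over the alternatives in limma the adjusted p ran from 0.00546 to 0.205.

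FGFR4, the receptor for FGF19 in hepatocytes, had the largest change of the 9 genes on the log2(FPKM + 1) scale. It was at 5.61, 5.08 and 5.41 FPKM in Scramble cells, 16.7, 13.9 and 15.6 after Si-KDM4C#1, and 9.82, 9.74 and 9.56 after Si-KDM4C#2. None of the 3 groups overlapped, with the control lowest and Si-KDM4C#1 highest. FGFR4 rose by 1.36 (log2) after Si-KDM4C#1 (SE 0.0646, limma-trend adjusted p = 1.19e-07) and by 0.75 after Si-KDM4C#2 (SE 0.0646, adjusted p = 8.29e-06). Of the 5 genes tested among the 14363, it was the only one called after Si-KDM4C#1, where 8.87% of tested genes were called. None of the 5 was called after Si-KDM4C#2, where 4.89% of tested genes were. The rise was smaller after Si-KDM4C#2, by 0.61 on the log2 scale (adjusted p = 2.60e-05 by limma-trend for the difference between the siRNAs). After adjustment for GC content the rise under Si-KDM4C#2 came to 0.46 (limma-trend, adjusted p = 0.000153). FGFR4 (ENSG00000160867) is found at positions 177086886 to 177098144 of chromosome 5, plus strand, on the same arm as FGF18.

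FGFR3, a receptor that FGF18 and other ligands activate and that restrains bone growth, rose with both siRNAs too. Its libraries were at 6.63, 5.69 and 5.46 FPKM in Scramble cells, 10.5, 9.04 and 9.55 after Si-KDM4C#1, and 11.9, 12.5 and 10.6 after Si-KDM4C#2. Again the 3 groups did not overlap, here after Si-KDM4C#2 highest. The log2 fold change was 0.63 after Si-KDM4C#1 (SE 0.0820, limma-trend adjusted p = 9.49e-05) and 0.87 after Si-KDM4C#2 (SE 0.0820, adjusted p = 1.48e-05). Mean FPKM was 1.64 and 1.97 times that of Scramble. The difference between the siRNAs, 0.25 (limma-trend adjusted p = 0.0257), passed the FDR in this fit but not with quantile normalization (0.19, adjusted p = 0.0510) or voom (0.13, adjusted p = 0.114). It also missed the FDR in limma-trend without Si-KDM4C#1 replicate 2 (adjusted p = 0.0900) or 3 (0.0663) and without Si-KDM4C#2 replicate 1 (0.0689) or 2 (0.0924).

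FGFR1, the main FGF receptor of mesenchymal cells, was lower after Si-KDM4C#1 than in both other groups. Its libraries were at 3.31, 2.97 and 2.84 FPKM in Scramble cells, 2.40, 2.15 and 2.16 after Si-KDM4C#1, and 3.07, 3.28 and 3.80 after Si-KDM4C#2. The Si-KDM4C#1 libraries were below all others, while Scramble and Si-KDM4C#2 overlapped. FGFR1 fell by 0.32 (log2) after Si-KDM4C#1 (SE 0.0802, limma-trend adjusted p = 0.00574), and after Si-KDM4C#2 the log2 fold change was 0.12 (95% interval -0.06 to 0.30, adjusted p = 0.240). With quantile normalization the change after Si-KDM4C#1 was -0.21 (limma-trend adjusted p = 0.0290). Si-KDM4C#2 was 0.44 above Si-KDM4C#1 (adjusted p = 0.00102 by limma-trend). FGFR1 (ENSG00000077782, chromosome 8, 38400215 to 38468834, minus strand) overlaps LETM2 on the other strand, at 0.379 to 0.621 FPKM, and its values did not come out as whole fragments, so no fragment count is given.

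FGFR2, a receptor mainly of epithelia, was nearly absent. Its values were 0.0699, 0.0830 and 0.131 FPKM in Scramble cells, 0.0146, 0.0542 and 0.0411 after Si-KDM4C#1, and 0.153, 0.0594 and 0.0773 after Si-KDM4C#2, from 35, 13 and 35 fragments. The Si-KDM4C#1 libraries were the lowest 3 of the 9. On the log2(FPKM + 1) scale the change after Si-KDM4C#1 was -0.08 (95% interval -0.17 to 0.01, limma-trend adjusted p = 0.205), whereas with voom on the fragments it was -1.38 (adjusted p = 0.0330). The fragment ratio to Scramble was 0.367 after Si-KDM4C#1 (exact 95% interval 0.178 to 0.711) and 1.00 after Si-KDM4C#2 (0.608 to 1.65).

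FGFRL1 binds FGFs but has no kinase domain and is regarded as a decoy or modulating receptor. It was at 10.5, 10.9 and 11.3 FPKM in Scramble cells, 8.04, 7.65 and 5.99 after Si-KDM4C#1, and 18.4, 16.7 and 16.8 after Si-KDM4C#2. The groups did not overlap, and the siRNAs stood on opposite sides of Scramble. FGFRL1 fell by 0.54 (log2) after Si-KDM4C#1 (SE 0.0892, limma-trend adjusted p = 0.000478) and rose by 0.62 after Si-KDM4C#2 (SE 0.0892, adjusted p = 0.000240). The siRNAs differed by 1.16 (adjusted p = 3.13e-06 by limma-trend). Of the 5 genes tested among the 14363, it was the only one called in that comparison, where 6.91% of tested genes were called. Adjusted for GC content, the rise after Si-KDM4C#2 was 0.33 (limma-trend adjusted p = 0.0164). Its groups held 2173, 1464 and 3442 fragments in Scramble cells, Si-KDM4C#1 and Si-KDM4C#2.

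By the FDR alone, 6 of the 9 genes passed after Si-KDM4C#1 (FGFR3 and FGFR4 higher, FGF18, FGF2, FGFR1 and FGFRL1 lower), 5 after Si-KDM4C#2 (FGFR3, FGFR4 and FGFRL1 higher, FGF18 and FGF2 lower) and 4 between the siRNAs (FGFR1, FGFR3 and FGFRL1 higher after Si-KDM4C#2, FGFR4 lower). The FDR is a weak criterion here, since 65.7% of the 14363 tested genes passed it after Si-KDM4C#1, 59.4% after Si-KDM4C#2 and 62.4% between the siRNAs. Of the 5 genes tested among these 14363, 2 rose and 3 fell after Si-KDM4C#1. After Si-KDM4C#2, 3 of them rose and 1 fell, with the same numbers between the siRNAs. Of the 4 genes under 1 FPKM, FGF18 alone passed with each siRNA, against 29.5% and 25.6% of all listed genes. Both comparisons with the Scramble group use its 3 libraries. Their medians over all tested genes were -0.03 and 0.06 (log2), and that between the siRNAs was 0.08.

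**Figure D2:**
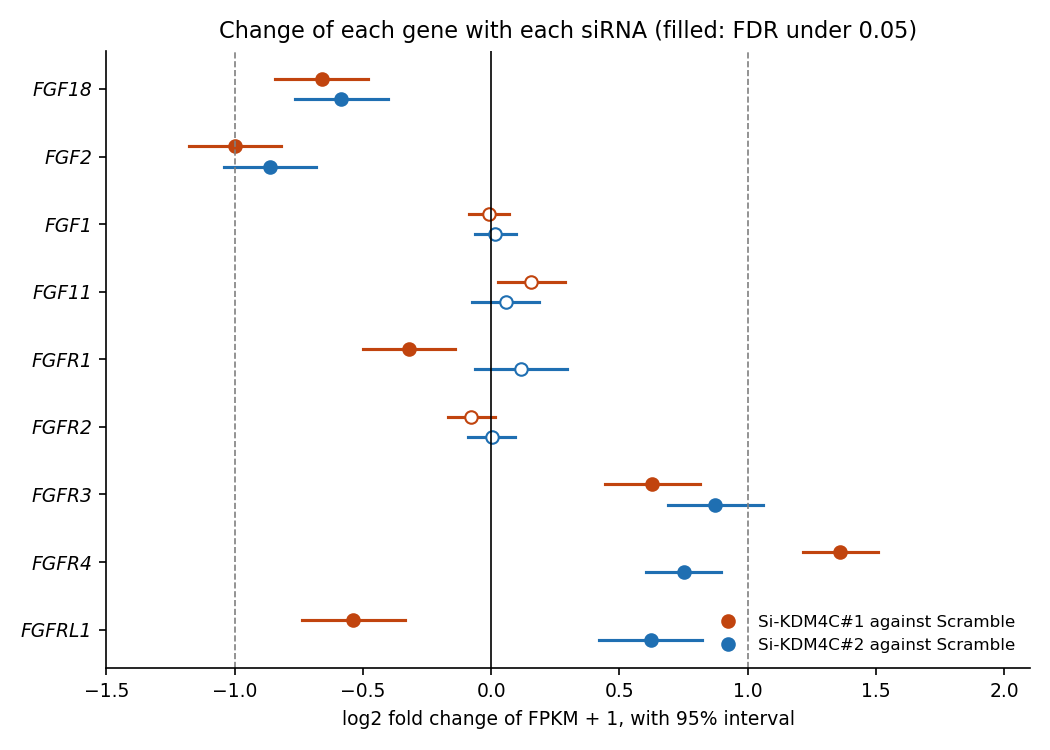
Log2 fold change of FPKM + 1 against Scramble (x axis) with its 95% interval for each gene (y axis) and siRNA (colour), filled where the FDR is under 0.05, with dashed lines at 2-fold. FGF18 and FGF2 lie left of 0 and FGFR3 and FGFR4 right of 0 with both siRNAs, and FGFRL1 lies at -0.54 after Si-KDM4C#1 and 0.62 after Si-KDM4C#2.

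The receptors with a kinase domain, FGFR1 to FGFR4, added up to 14.4 ± 1.03 FPKM in Scramble cells, 27.4 ± 2.26 after Si-KDM4C#1 and 24.9 ± 0.772 after Si-KDM4C#2 (SD, n = 3 each). With Scramble the sum was divided into 41.0% FGFR3, 37.3% FGFR4, 21.1% FGFR1 and 0.664% FGFR2. The FGFR4 share was 56.2% ± 0.933 after Si-KDM4C#1 and 39.1% ± 0.910 after Si-KDM4C#2, against 37.3% ± 1.65 in Scramble cells. For FGFR1 the share was 8.17% ± 0.341 and 13.6% ± 1.87, against 21.1% ± 0.506. FGFR3 made up 35.4% ± 0.553 after Si-KDM4C#1 and 46.9% ± 2.46 after Si-KDM4C#2, on either side of 41.0% ± 1.49. Thus the sum grew with both siRNAs, with FGFR4 in the largest place for Si-KDM4C#1 and FGFR3 for Si-KDM4C#2. Sums and shares depend on the exon length used for each receptor, which is not known for FGFR1.

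Shares were compared in 12 two-sided exact permutation tests (4 receptors, 3 comparisons). In 10 of them the groups did not overlap and p was 0.1, the smallest that 3 against 3 allows (adjusted p = 0.12), so this design cannot reach 0.05. The 4 shares of a library add up to the whole, so the 12 tests are not separate results. How often groups lie apart over all genes was not counted. The exceptions were FGFR2 (p = 0.3, adjusted 0.3, exact permutation) and FGFR4 (p = 0.2, adjusted 0.218, exact permutation), both after Si-KDM4C#2 against Scramble. In single libraries the ratio of FGFR4 to FGFR1 in FPKM ran from 1.69 to 1.91 in Scramble cells, from 6.46 to 7.24 after Si-KDM4C#1 and from 2.52 to 3.20 after Si-KDM4C#2.

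**Figure D3:**
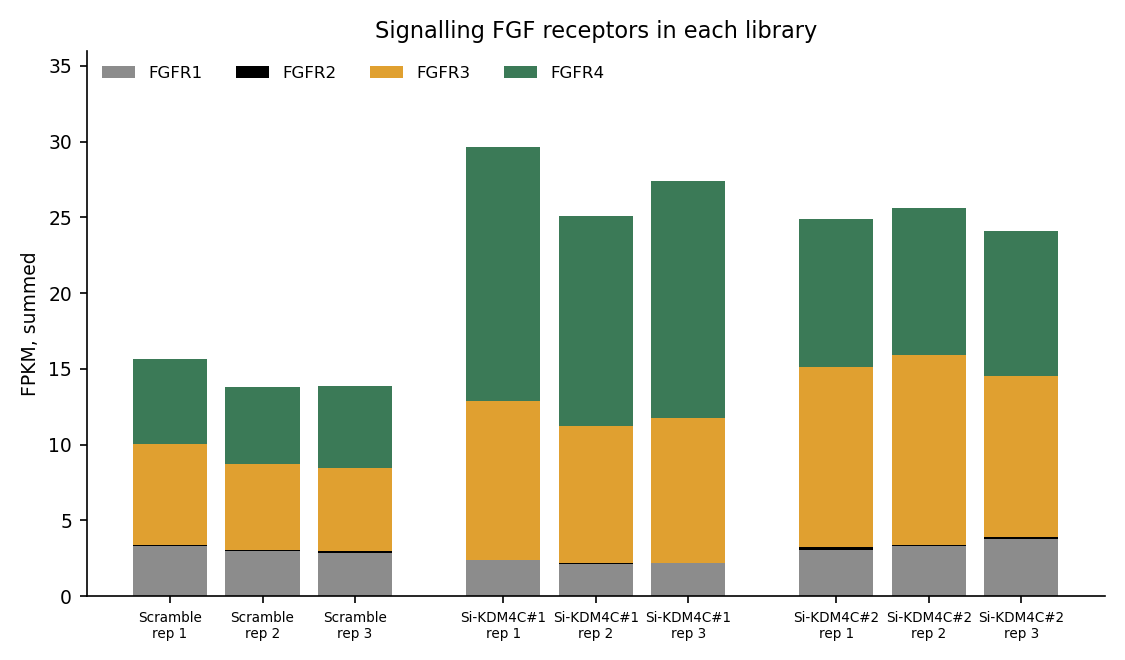
FPKM of FGFR1, FGFR2, FGFR3 and FGFR4 stacked (y axis, from 0) in each library (x axis). The stacks reach 13.8 to 15.6 in Scramble cells, 25.1 to 29.6 after Si-KDM4C#1 and 24.1 to 25.6 after Si-KDM4C#2, and FGFR2 is barely visible in any of them.

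The remaining secreted FGFs were low throughout. Of 14 ligands on the list, 10 were listed in the data and none reached a mean of 1 FPKM in any group. FGF7, a keratinocyte growth factor made by mesenchyme, fell with both siRNAs, from 0.458 to 0.671 FPKM in Scramble cells to 0.166 to 0.268 after Si-KDM4C#1 and 0.132 to 0.222 after Si-KDM4C#2, without overlap in Scramble cells. Its log2 fold changes were -0.37 (limma-trend adjusted p = 0.00587) and -0.42 (adjusted p = 0.00346). FGF21, a liver hormone of the fasting state, was higher in the Si-KDM4C#1 libraries (0.365 to 1.01 FPKM) than in Scramble cells (0.0478 to 0.178) or Si-KDM4C#2 (0.0446 to 0.147), a change of 0.49 (log2, limma-trend adjusted p = 0.0313) that rests on 40 fragments against 8. FGF22, expressed in skin and brain, was at 0.271, 0.221 and 0.433 FPKM on average and did not pass the test. Among the FGF homologous factors, FGF12 rose after Si-KDM4C#2, from 0.593 ± 0.123 to 1.06 ± 0.0636 FPKM (limma-trend adjusted p = 0.0176), and was at 0.451 ± 0.0676 after Si-KDM4C#1. FGF13 was near 0 in all groups.

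Of the co-receptors, FGF-binding proteins and FLRT proteins, 7 of 8 were listed, all but KL, and 3 reached 1 FPKM and were tested among the 14363 genes. KLB, which codes for beta-klotho, was at 0.0863, 0.0170 and 0.0603 FPKM on average in Scramble cells, Si-KDM4C#1 and Si-KDM4C#2. In the fit over all listed genes KLB did not pass the FDR with either siRNA. FLRT3, a membrane protein that binds FGF receptors, rose from 1.59 ± 0.161 FPKM to 3.93 ± 0.0843 after Si-KDM4C#1 and 2.30 ± 0.215 after Si-KDM4C#2 (SD, n = 3). FGFBP3, a secreted carrier of FGFs, was at 0.346 ± 0.125 FPKM in Scramble cells and rose to 1.24 ± 0.642 and 1.25 ± 0.397. The related carrier FGFBP1, which releases FGF2 from the matrix, fell after Si-KDM4C#2 (1.5 ± 0.292 to 0.415 ± 0.0942 FPKM, limma-trend adjusted p = 0.00141) and was at 1.19 ± 0.423 after Si-KDM4C#1. None of the 3 was called with either siRNA, on a scale that compresses the changes of genes this low. In mean FPKM, FGFBP3 was at 3.60 and 3.62 times Scramble after Si-KDM4C#1 and Si-KDM4C#2. In the same order FLRT3 was at 2.48 and 1.45 times and FGFBP1 at 0.793 and 0.276 times Scramble. Of the genes of bile acid control by FGF19, 4 of 6 were listed, and all of them, NR0B2, SLC10A1 and ABCB11 being the highest, were under 1 FPKM. ABCB11, the bile salt export pump, passed the FDR as lower after both siRNAs, at a mean of 0.0643 FPKM in Scramble cells and 0.00802 and 0.00795 after Si-KDM4C#1 and Si-KDM4C#2. CYP7A1, the rate-limiting enzyme of bile acid synthesis, was not among the listed genes and was not analysed here.

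Heparan sulfate proteoglycans, which present FGFs to their receptors, contributed 3 called genes after Si-KDM4C#1, in which 8.87% of all tested genes were called. Of 20 genes for these proteins, their chains and sulfatases, 18 were listed and 13 tested. Of these 13, 6 rose and 2 fell after Si-KDM4C#1, with 31.7% of all tested genes higher and 33.9% lower. With Si-KDM4C#2, 4 rose and 4 fell, with 34.4% of all tested genes higher and 25.0% lower, and none was called. The medians of the list, 0.09 and 0.00 (log2), were near those of all tested genes. Syndecan-1 (SDC1) was at 12.2 ± 1.13 FPKM in Scramble cells, 39.9 ± 1.12 after Si-KDM4C#1 and 22.1 ± 0.651 after Si-KDM4C#2, with log2 fold changes of 1.64 (limma-trend adjusted p = 2.95e-08) and 0.82 (adjusted p = 3.25e-06). Syndecan-4 (SDC4) had the same order, at 10.1 ± 0.281, 29.1 ± 2.19 and 14.2 ± 1.44 FPKM. Glypican-1 (GPC1), a lipid-anchored proteoglycan, rose after Si-KDM4C#1 and fell after Si-KDM4C#2, at 5.85 ± 0.461, 22.6 ± 0.761 and 4.02 ± 0.348 FPKM. Between the siRNAs GPC1 was called (log2 -2.24, limma-trend adjusted p = 1.38e-08). No other of the 13 was, with 6.91% of all tested genes called in that comparison. Perlecan (HSPG2), the proteoglycan of basement membranes, was at 23.6, 21.2 and 22.4 FPKM and passed no test.

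Downstream of the receptors, all 19 adaptor and RAS-MAPK relay genes were tested. With Si-KDM4C#1, 8 rose and 6 fell, and after Si-KDM4C#2, 10 rose and 5 fell, with medians of 0.07 and 0.27 (log2) against -0.03 and 0.06 over all tested genes. Of all tested genes, 31.7% rose and 33.9% fell after Si-KDM4C#1, and 34.4% rose and 25.0% fell after Si-KDM4C#2. PTPN11, which codes for the phosphatase SHP2, rose from 15.9 ± 0.699 FPKM to 35.4 ± 2.66 after Si-KDM4C#1 (log2 1.11, limma-trend adjusted p = 1.62e-07) and 38.5 ± 0.329 after Si-KDM4C#2 (log2 1.23, adjusted p = 1.69e-07), and was called with both. SOS1, the exchange factor that loads RAS with GTP, fell from 11.4 ± 0.514 to 4.27 ± 0.288 after Si-KDM4C#1 (log2 -1.23, limma-trend adjusted p = 9.96e-08, called) and to 6.25 ± 0.234 FPKM after Si-KDM4C#2 (log2 -0.77, adjusted p = 3.06e-06). The most abundant relay mRNAs changed less, with GRB2 at 39.4, 53.1 and 46.6, SHC1 at 33.7, 38.5 and 32.9 and MAP2K2 at 29.1, 42.7 and 36.5 FPKM on average in Scramble cells, Si-KDM4C#1 and Si-KDM4C#2.

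Of the 16 genes on a list of ERK targets and inhibitors of the relay, 15 were tested. With Si-KDM4C#1, 11 rose and 1 fell (median 0.55 on the log2 scale), and after Si-KDM4C#2, 7 rose and 1 fell (median 0.23). Over all tested genes 31.7% rose and 33.9% fell (median -0.03) after Si-KDM4C#1, and 34.4% rose and 25.0% fell (median 0.06) after Si-KDM4C#2. FOSL1, an AP-1 subunit, was at 3.90 ± 0.233 FPKM in Scramble cells, 26.0 ± 4.08 after Si-KDM4C#1 and 8.82 ± 0.815 after Si-KDM4C#2. Its log2 fold changes were 2.45 (limma-trend adjusted p = 6.80e-08) and 1.00 (adjusted p = 3.02e-05, just past the 2-fold limit). The ETS factor ETV4 was called with both siRNAs, from 3.73 ± 0.312 to 8.94 ± 0.633 and 9.87 ± 0.994 FPKM, and ETV5 was called after Si-KDM4C#1, from 2.49 ± 0.237 to 6.49 ± 0.192, with 4.31 ± 0.210 FPKM under Si-KDM4C#2. CCND1, the cell cycle cyclin D1, went opposite ways, from 31.0 ± 1.75 up to 48.6 ± 1.05 FPKM after Si-KDM4C#1 and down to 12.1 ± 0.761 after Si-KDM4C#2 (log2 -1.29, limma-trend adjusted p = 1.03e-07, called). DUSP6, a feedback phosphatase, was at 1.17, 1.21 and 1.22 FPKM on average in Scramble cells, Si-KDM4C#1 and Si-KDM4C#2. It passed no test against Scramble (limma-trend adjusted p = 0.851 and 0.819). DUSP4, DUSP5, SPRY1 and SPRY2 rose after Si-KDM4C#1 but did not pass the FDR after Si-KDM4C#2. While the ligand mRNAs FGF18 and FGF2 were lower, most genes of this list that passed the FDR were higher, and mRNA levels do not show pathway activity.

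**Figure D4:**
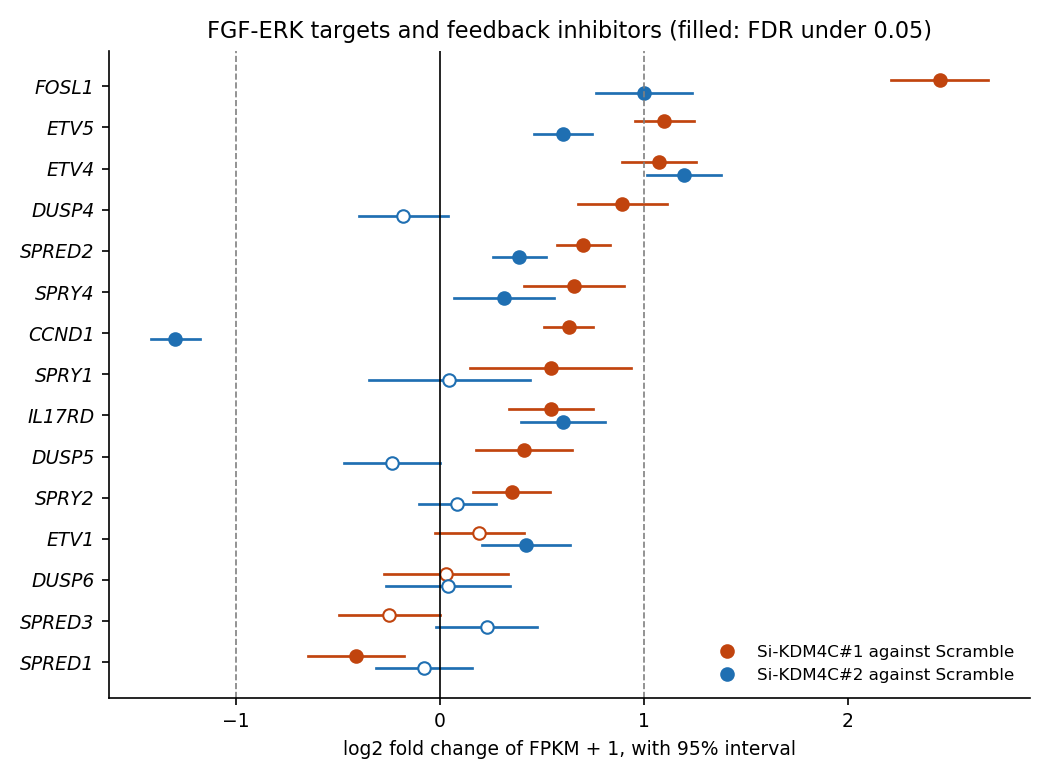
Log2 fold change of FPKM + 1 against Scramble (x axis) with its 95% interval for the 15 tested ERK target and feedback genes (y axis), by siRNA (colour), filled where the FDR is under 0.05, with dashed lines at 2-fold. FOSL1, ETV4 and ETV5 lie right of 0 with both siRNAs, and CCND1 lies at 0.63 after Si-KDM4C#1 and -1.29 after Si-KDM4C#2.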

How the data were processed

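Huh7 cells were sequenced (paired ends, Illumina NovaSeq, NEBNext Ultra RNA kit) in 9 libraries, 3 each of Scramble, Si-KDM4C#1 and Si-KDM4C#2. What the authors deposited is FPKM per gene, a separate file for each library. The submitters' processing notes name FastQC 0.11.5, HISAT2 2.1.0, StringTie 1.3.3b, DESeq 1.28.0, featureCounts and GRCh38, without their roles. Between-library scaling is not given in the sources used here.

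Groups were compared by limma-trend on log2(FPKM + 1), with limma 3.58.1 in R 4.3.3, all 9 libraries in 1 fit without covariates, with Benjamini-Hochberg adjustment. Calls needed FDR < 0.05 and a fold change over 2. Genes whose mean reached 1 FPKM in any group were tested, and lower ones in the same fit over all listed genes. Fragments were recovered as FPKM times GENCODE release 29 exon length and a fitted total. They came out whole (within 0.05) in all libraries for 32075 genes (97.65%). Intervals on them and the floor of 3 fragments cover counting error only. Alternatives were quantile normalization, a pseudocount of 0.1, other filters, the 6 libraries of a comparison alone, the replicate block, no fold limit, limma voom on fragments (at least 10 in at least 3 libraries, 16005 genes), leaving out each library and, chosen after seeing the data, a GC adjustment (lowess, span 0.3).

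The members and gene lists were chosen with earlier results of these data known. From each list, the text names every gene called with at least 1 siRNA and the 3 with the highest mean FPKM, and the 5 genes most like FGF18. Named in addition, after seeing the data, were KLB, DUSP4, DUSP5, DUSP6, SPRY1 and SPRY2. The methods were tested on simulated data. Python 3.11.15 with numpy 2.4.6, pandas 2.3.3, scipy 1.17.1 and matplotlib 3.10.9 served for the rest.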

Additional observations from a re-analysis of the deposited data

Results flagged for a closer look

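FGFRL1, the FGF receptor without a kinase domain, differed between the siRNAs by 1.16 on the log2(FPKM + 1) scale in the test of that difference (limma-trend adjusted p = 3.13e-06). All 3 libraries of Si-KDM4C#1 (5.99 to 8.04 FPKM) lay below and all 3 of Si-KDM4C#2 (16.7 to 18.4 FPKM) above the Scramble libraries (10.5 to 11.3 FPKM). Over the alternatives other than leaving out a library the difference ran from 1.09 to 1.26, and without any 1 library from 1.04 to 1.23. Which siRNA is nearer to the effect of KDM4C loss on FGFRL1 was not tested.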

How the results depend on the processing

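With Si-KDM4C#1 against Scramble, the 1 call among the 9 genes (FGFR4) became 3 with a pseudocount of 0.1 (FGF18, FGF2 and FGFR4), 4 with voom on fragments and 4 with voom and the replicate block (FGF18, FGF2, FGFR2 and FGFR4), and 6 without a fold limit. Leaving out 1 library gave 1 to 2, with FGF2 added without Scramble replicate 3 or Si-KDM4C#1 replicate 2. With Si-KDM4C#2 the 0 calls became 1 with a pseudocount of 0.1 (FGF18), 2 with voom (FGF18 and FGF2), 2 with voom and the replicate block, and 5 without a fold limit. Between the siRNAs the 1 call became 4 without a fold limit. Calls grew over all tested genes too. With the pseudocount of 0.1, 900 of 14363 genes were called higher and 1402 lower after Si-KDM4C#1, and 758 and 685 after Si-KDM4C#2. In the main fit these were 580 and 694, and 373 and 330. With voom, 1198 of 16005 genes were called higher and 1825 lower after Si-KDM4C#1, and 872 and 1121 after Si-KDM4C#2. Without a fold limit, 65.7%, 59.4% and 62.4% of the 14363 genes passed in the 3 comparisons. The smaller pseudocount and the fragments stretch the fold changes of low genes by construction, and voom gave values for 7 of the 9 genes, not FGF1 or FGFR1.

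Some values near 0 changed sign. FGF1 was at 0.0097 with Si-KDM4C#1 under quantile normalization. With Si-KDM4C#2 and 1 library left out, FGF1 ran from -0.023 to 0.036 against Scramble and from -0.015 to 0.044 against Si-KDM4C#1, negative without Si-KDM4C#2 replicate 1. FGFR2 with Si-KDM4C#2 was at -0.0015 with a pseudocount of 0.1, -0.11 with voom, -0.19 with voom and the replicate block, and -0.035 to 0.027 with 1 library left out, negative without Scramble replicate 1 or 2 or Si-KDM4C#2 replicate 1. FGF2 between the siRNAs was at -0.0048 after GC adjustment. Of 195 results under alternatives, 179 kept direction and side of the threshold, and of 243 with 1 library left out, 231 did. The 243 include cases where that library was in neither group compared, and there the direction could not change. FGF18, FGF2, FGFR1, FGFR3, FGFR4 and FGFRL1 kept theirs with each siRNA against Scramble. The GC adjustment gave no value for FGF18, FGF1, FGF11 and FGFR2, which lie under 1 FPKM.

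Same-numbered libraries showed little joint deviation, with a mean correlation of 0.016 over 9 pairs (-0.046 to 0.055). For the 18 pairs with different numbers the mean was -0.008 (-0.053 to 0.064). Correlations this small cannot show whether the replicates were paired. The replicate block left 1, 0 and 1 calls in the 3 comparisons on log2(FPKM + 1). Depth limits FGF18, FGF1, FGF11 and FGFR2, each on under 100 fragments per group.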
